A study of Drosophila melanogaster with 6 samples.

Results

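The Axn locus of Drosophila melanogaster is described here as 4 annotated genes of chromosome arm 3R, out of 17559 genes in the count table: Axn itself, lncRNA:CR46111 inside it, and asRNA:CR44045 and ZIPIC on the opposite strand. They were picked by position around Axn, and Axn was picked because its dorsal and ventral levels were already known to differ, so every dorsal against ventral value of these 4 genes is given as a description with no test. The RNA, selected for poly(A) tails, came from neuroepithelium of the outer proliferation centre, the optic lobe epithelium from which the medulla arises. Cells with GFP were drawn by hand through a micropipette from brains of late second-instar larvae, labelled female and raised at 25 °C. There were 3 dorsal and 3 ventral libraries, each pooling 3 to 4 brains. The sources used here do not give the genotype, the driver of GFP or any allele that both groups share. Nothing in the labels says that the pooled samples came from separate days, so the spread between libraries may be partly technical.

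Axn encodes Axin, the scaffold that brings the APC proteins, the kinase Shaggy and casein kinase 1 alpha onto Armadillo, the fly beta-catenin, so that Armadillo is phosphorylated and destroyed. A Wnt ligand bound to Frizzled and Arrow recruits Axin to the membrane through Dishevelled, and Armadillo then accumulates and acts with the DNA-binding protein Pangolin. In the optic lobe the ligand Wingless is known from the tips of the outer proliferation centre. ZIPIC encodes a zinc finger DNA-binding protein that partners the insulator cofactor CP190. The remaining genes of the locus are annotated only as non-coding RNAs.

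Total counted reads ran from 25340188 to 27815885 in dorsal and from 21114019 to 26259242 in ventral libraries. The 15 neuroepithelial marker genes of a marker list were all read, with a summed level of 2680 to 3513 CPM in dorsal libraries, against 2876 to 4106 CPM in ventral ones (CPM is the read count scaled to one common total, with TMM factors). Markers of other cells were read too: 6 neuroblast genes summed to 486 to 1170 CPM dorsally against 635 to 1283 CPM ventrally, 8 neuron genes to 553 to 970 CPM dorsally against 690 to 1243 CPM ventrally, and 8 glia genes to 1173 to 1223 CPM dorsally against 988 to 1371 CPM ventrally. The neuron sum is carried by elav and fne. Syt1 had 7.37, 7.44 and 7.34 CPM (dorsal replicates 1 to 3) against 18.6, 26.5 and 9.03 CPM (ventral replicates 1 to 3). For brp, too, every ventral library was above every dorsal one, while Rbp9 went the other way. Groups did not overlap for 7.26% of all tested genes. The glia sum is carried by nrv2 and Eaat1. In other glia genes ventral replicate 1 stood apart from ventral replicates 2 and 3, with 607 reads of wrapper against 10 and 66. It had 161 reads of alrm against 2 and 0. Among dorsal libraries replicate 2 had the most wrapper (217 reads), alrm (20), Gs2 (266) and gcm (228), but the least moody (148). Its Gs2 and gcm reads were near the 298 and 282 of ventral replicate 1. Genes of muscle, blood and fat summed to at most 7.72 CPM dorsally and 11.3 CPM ventrally. The dosage compensation RNA lncRNA:roX2, made mainly in males, went against the female label in most libraries, with 16000, 7580 and 0 reads (dorsal replicates 1 to 3) and 6888, 62 and 5680 reads (ventral replicates 1 to 3). In the libraries with the fewest such reads, dorsal replicate 3 and ventral replicate 2, Axn stood at 27.3 CPM and 248 CPM. These libraries also held the fewest reads of lncRNA:roX1, the other such RNA, but it was not absent, with 12650 and 9246 reads. None of the marker genes was at 0 in all 6 libraries. EdgeR called none of those it tested, against 0.0919% of all genes, and it tested 7 of the 8 glia genes and 2 of the 6 muscle, blood and fat genes. The part of other cell types in the Axn values was not tested, and in bulk samples fewer cells of a type and less RNA per cell cannot be told apart.

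The 4 genes overlap in ways that decide what could be counted. Axn (FBgn0026597) spans 30022842 to 30035311 on the plus strand of 3R (dm6 coordinates, Ensembl annotation of BDGP6) and has 7 annotated transcripts with 4985 bp of merged exons. Of these transcripts, 4 begin at 30022842 with 3 non-coding exons of 1269 bp in all, and 3 begin 4519 bp further on, at 30027361, with a first exon of 216 bp. The starts share the coding exons from 30030951 onward, apart from alternative splicing. lncRNA:CR46111 (FBgn0267780) is a single exon of 655 bp at 30026218 to 30026872 on the same strand. It lies in intron 3 of the 4 longer transcripts (30025540 to 30030763, 5224 bp), and 488 bp separate its end from the later Axn start. It shares no exon base with Axn or any other gene.

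**Figure D1:**
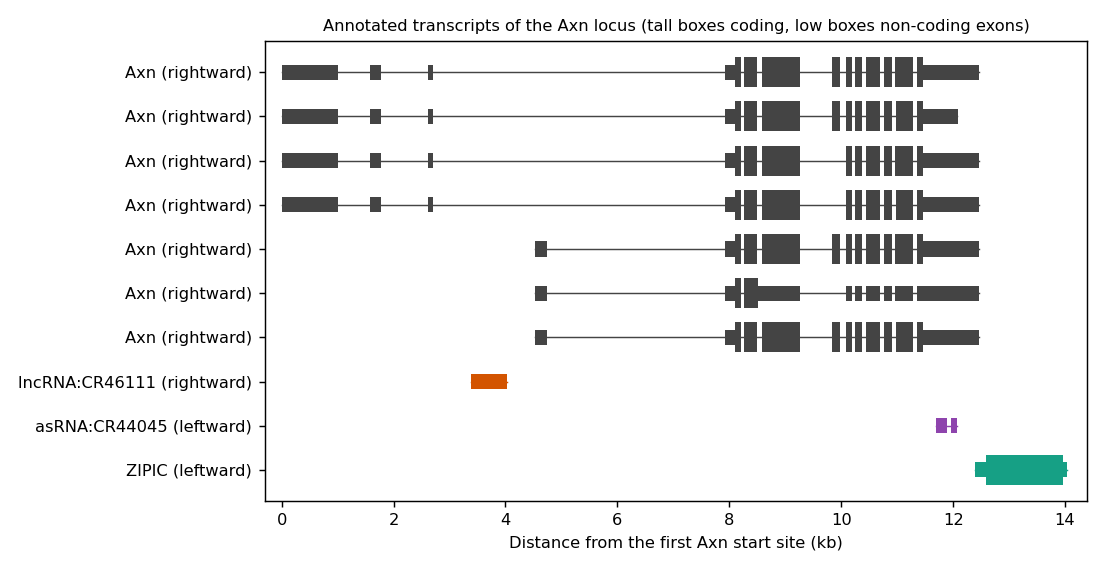
Annotated exons of the 4 genes by distance in kb from the first Axn start site, with each Axn transcript on a line of its own, tall boxes for coding and low boxes for non-coding exons. lncRNA:CR46111 lies between the earlier and the later Axn start, asRNA:CR44045 lies within the last Axn exon and the ends of ZIPIC and Axn overlap.

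The antisense gene asRNA:CR44045 (FBgn0264837, 30034540 to 30034907, minus strand) had 0 reads in all 6 libraries. All 302 bp of its exons lie within the last exon of Axn, in its 3′ untranslated part, so it has no exon base of its own once strand is ignored. Of 129 genes in the table with this layout, that is, every exon base shared with genes on the opposite strand and none on their own, 127 (98.4%) were at 0 reads in every library. The exceptions were MP1 and Lcp65Ag3, named for that reason after their values were seen. Among the 16598 genes with more than 50 exon bases of their own, 1062 (6.40%) were at 0. Genes with this layout thus received almost no counts, and the 0 of asRNA:CR44045 gives no measure of its RNA. Whether reads in the shared bases were credited to Axn was not tested. ZIPIC (FBgn0039740, 30035240 to 30036870, minus strand, 1 exon) shares 72 of its 1631 bp with the end of Axn, or 4.41%, and has 1559 bp of its own. Axn keeps 4611 bp of its own.

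Axn was read in every library and was far higher in the ventral cells. It had 634, 520 and 714 reads (dorsal replicates 1 to 3) against 5286, 5046 and 4503 reads (ventral replicates 1 to 3). These were 24.7, 18.4 and 27.3 CPM dorsally and 200, 248 and 186 CPM ventrally. The groups did not overlap, a pattern that 3.17% of all tested genes had toward ventral and that here is part of how the gene was chosen. The lowest ventral library stood at 6.80 times the highest dorsal one, while libraries of the same group differed by at most 1.48-fold in dorsal and 1.34-fold in ventral cells. On the authors' deposited normalized counts Axn averaged 580 ± 113 dorsally and 5279 ± 850 ventrally (SD, n = 3 each). The fitted log2 fold change was -3.17 ± 0.22 (dorsal minus ventral, ± SE, edgeR), so that the dorsal level was 0.111 of the ventral one.

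Axn was chosen for this contrast and passes a minimum on the mean level through its ventral libraries, so its place among abundant genes is given as a description. Of 3326 genes with a mean of at least 50 CPM over the 6 libraries, Axn and CG14989 were the 2 with a log2 fold change of -3.17 or beyond in either direction, and Rbp6, a gene for an RNA-binding protein of the Musashi family, followed at -3.03. CG14989 spread more than Axn, with 6.12, 24.6 and 3.59 CPM (dorsal replicates 1 to 3) against 181, 179 and 19.4 CPM (ventral replicates 1 to 3). Within groups Axn varied about as much as other genes of that abundance, with an SD of 0.26 on the log2 CPM scale against a median of 0.24. Among the ventral libraries, elav, fne, Syt1, brp, futsch and Rbp9, of the 8 neuron markers, were highest in replicate 2. That library had the most Axn. Its Rbp9 level of 1.62 CPM was still below the 2.69, 3.12 and 2.485 CPM of dorsal replicates 1 to 3. In ventral replicates 1, 2 and 3, elav, a gene of all neurons, had 274, 583 and 334 CPM. The other markers ranked these libraries differently. The synaptic vesicle gene nSyb had 39.0, 6.63 and 0.618 CPM, and Syx1A had 75.7, 75.8 and 88.0 CPM. The part of neurons in the Axn values was not tested. Set against ventral replicate 3 alone, the dorsal libraries gave Axn a log2 fold change of -2.98.

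lncRNA:CR46111 was close to unread in dorsal cells. It had 0, 0 and 1 reads (dorsal replicates 1 to 3) against 80, 43 and 77 reads (ventral replicates 1 to 3). In CPM these were 0, 0 and 0.0382 dorsally and 3.03, 2.11 and 3.17 ventrally. A count of 0 allows up to 3 reads, which is 0.117 CPM in dorsal replicate 1 and 0.106 CPM in dorsal replicate 2, both far below the lowest ventral library. Over pooled reads the dorsal level was 0.00444 of the ventral level (exact 95% interval 0.000112 to 0.0250, counting error only). The fitted log2 fold change of -7.31 rests on the single dorsal read and on the prior count of the fit, and it was -9.12 without dorsal replicate 3, the library with that read, -6.89 without dorsal replicate 1 and -6.84 without dorsal replicate 2.

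The lncRNA was lower in dorsal cells by more than Axn was. For every 100 reads of Axn there were 0, 0 and 0.140 reads of lncRNA:CR46111 in the dorsal replicates, against 1.51, 0.852 and 1.71 in the ventral ones. Pooled by group the ratio was 0.0535 (exact 95% interval 0.00136 to 0.299) in dorsal and 1.35 (1.17 to 1.55) in ventral libraries. At the ventral ratio the 1868 dorsal reads of Axn would have come with 25.2 reads of the lncRNA, where 1 was counted. Both intervals allow for counting error alone, as the reads carry no molecular identifiers. The lncRNA lies on the Axn strand inside an Axn intron, so reads of unspliced Axn RNA and of a separate lncRNA cannot be told apart in these counts.

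**Figure D2:**
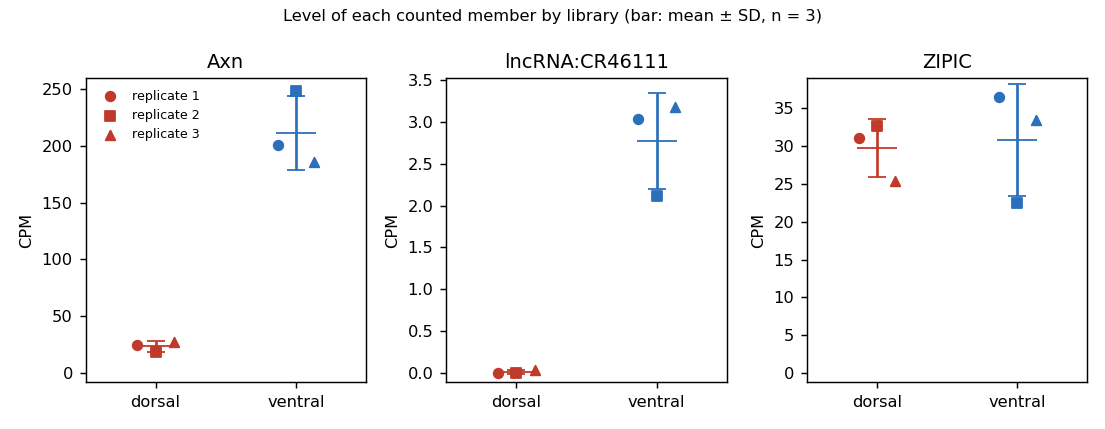
CPM of Axn, lncRNA:CR46111 and ZIPIC in each library, dorsal on the left and ventral on the right, with a marker for each replicate and a bar for the mean ± SD (n = 3). Dorsal libraries sit at 18.4 to 27.3 CPM for Axn and at 0 to 0.0382 CPM for lncRNA:CR46111, below every ventral library, while the ranges of ZIPIC overlap.

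ZIPIC, whose end overlaps that of Axn, did not separate the groups. It had 798, 923 and 665 reads (dorsal replicates 1 to 3) against 962, 457 and 810 reads (ventral replicates 1 to 3). It averaged 29.7 ± 3.83 CPM dorsally and 30.8 ± 7.37 CPM ventrally (SD, n = 3 each). The ventral range of 22.5 to 36.5 CPM took in the whole dorsal range of 25.4 to 32.7 CPM. The log2 fold change was -0.05 ± 0.25, and its values fell on either side of 0 when single libraries were left out (-0.24 to 0.09). Reads of ZIPIC per 100 reads of Axn ran from 93.1 to 178 in the dorsal libraries, against 9.06 to 18.2 in the ventral ones.

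Compared per length, the order of the genes differed between the groups. In RPKM, which is CPM divided by the exon length in kb, ZIPIC led in dorsal cells at 18.2 ± 2.35, followed by Axn at 4.71 ± 0.92 and lncRNA:CR46111 at 0.0195. In ventral cells Axn led at 42.4 ± 6.53, followed by ZIPIC at 18.9 ± 4.52 and lncRNA:CR46111 at 4.23 ± 0.88 RPKM (SD, n = 3 each). No neighbours in either order overlapped between libraries. The highest dorsal Axn library had 5.48 RPKM and the lowest dorsal ZIPIC library 15.6, while the lowest ventral Axn library had 37.2 RPKM and the highest ventral ZIPIC library 22.4. Counting only exon bases that no other gene shares, Axn stood at 5.09 and ZIPIC at 19.1 RPKM in dorsal, and at 45.8 and 19.7 RPKM in ventral cells. As a share of all reads of the 4 genes, Axn held 36.0% to 51.7% in dorsal and 83.5% to 91.0% in ventral libraries, with Wilson 95% intervals, for counting error only, no wider than 49.1% to 54.4% in dorsal replicate 3.

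Within a group the members did not rank the libraries alike. In ventral cells replicate 2 had the most Axn and the least lncRNA:CR46111 and ZIPIC. In dorsal cells replicate 2 had the least Axn and the most ZIPIC, and replicate 3 the reverse.

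Other long non-coding RNAs inside protein-coding genes were set beside the Axn pair. There were 80 pairs in which both genes were tested, the lncRNA lay within the span of the host and no exon base was shared, 16 of them on the host strand. The absolute difference in log2 fold change between lncRNA and host had a median of 0.45, and 4.14 for lncRNA:CR46111 and Axn, the largest of the 80. Leaving out single libraries, 1 to 3 pairs of 85 to 89 reached the value of the Axn pair, itself included. Both genes were beyond 2-fold in the same direction in 1 of the 80 pairs, the Axn pair. Axn, chosen for its change, was the only host beyond 2-fold, so no other pair could have met this. In 38 pairs lncRNA and host had the same sign. These counts are over pairs that passed the filter on low counts, and the members were chosen with the contrast known, so they describe the pair and do not test it.

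**Figure D3:**
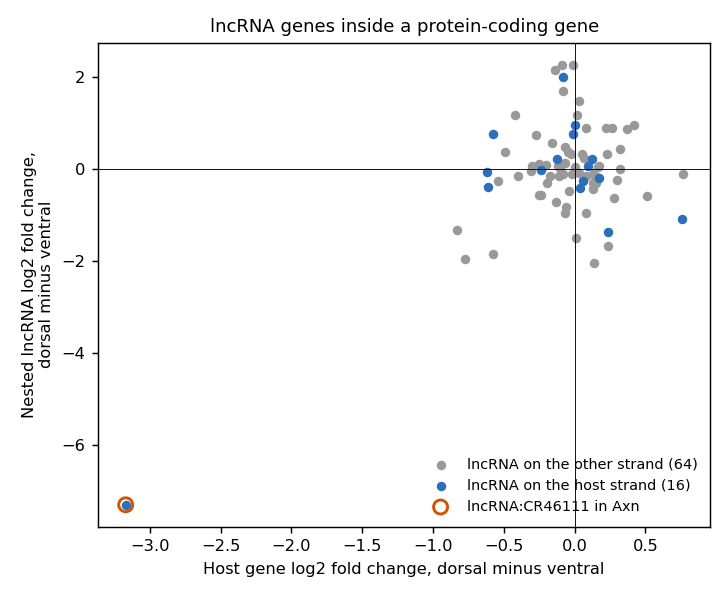
Log2 fold change (dorsal minus ventral) of each tested lncRNA gene inside a protein-coding gene, against that of its host, with lncRNAs on the host strand in blue, on the other strand in grey and the Axn pair ringed. The other hosts lie between -0.83 and 0.76, and the Axn pair stands alone at -3.17 for the host and -7.31 for the lncRNA, a value that rests on 1 dorsal read.

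The density of lncRNA:CR46111 relative to its host was also compared, with a minimum for hosts chosen after the values were seen. Per own exon base it had 0.382% of the density of Axn in dorsal and 9.24% in ventral cells. Among host-strand lncRNAs with 1 host each, of at least 4 RPKM, the median was 1.31% of the host in dorsal (32 pairs) and 1.30% in ventral cells (39 pairs). Of these, 23 of 32 were at least as dense as lncRNA:CR46111 in dorsal and 9 of 39 in ventral cells, itself included. Relative to its host the lncRNA was thus above the median in ventral cells. Its dorsal value lay below the median but within the quartiles of 0.328% to 10.1%. As it rests on 1 read, its place against the dorsal median is uncertain.

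Pairs like Axn and ZIPIC, on opposite strands with shared exon bases, had the same sign of log2 fold change in 622 of 1256 tested pairs. The median absolute difference in log2 fold change was 0.26, against 3.12 for Axn and ZIPIC, the sixth largest value. Most genes changed little, with a median absolute log2 fold change of 0.18 over all tested genes. A small difference therefore does not show that the genes of a pair move together. Leaving out single libraries, 7 to 28 pairs reached the value of Axn and ZIPIC, itself included.

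The genes around the locus were taken by position alone, as the 10 nearest tested genes on each side. EdgeR called none of these 20, against 0.0919% of all 8707 genes tested (8 genes, adjusted p under 0.05). None of the 20 had an unadjusted p under 0.05, against 3.2% of all genes, and DESeq2 and limma-trend called none either, against 0.495% and 0.0919% of all genes. Their log2 fold changes lay between -0.66 and 0.45 with a median of -0.04, beside a median of 0.00 over all genes. Groups did not overlap for 2 of the 20, Mgat2 and the DNA repair gene spn-A, against 7.26% of all genes. No gene among them was beyond 2-fold, against 694 of 8707. The calls over all genes dropped to 4 without dorsal replicate 1 and to 3 with ventral replicates 1 and 2 left out, and the 20 neighbours held none in any alternative.

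Mgat2, for an enzyme of N-glycan processing, lies nearest to the earlier Axn start, 621 bp away and on the other strand. It had 19.9, 22.6 and 26.4 CPM (dorsal replicates 1 to 3) against 32.6, 29.1 and 29.8 CPM (ventral replicates 1 to 3). Its ventral libraries were all higher, and its log2 fold change was -0.41 ± 0.22 (adjusted p = 1.00, edgeR). CG7920 stood at 118 ± 8.15 CPM dorsally and 121 ± 28.3 CPM ventrally. Nlp, a nucleoplasmin-like histone chaperone gene, stood at 1227 ± 97.2 CPM dorsally and 1270 ± 110 CPM ventrally. Past ZIPIC, janB was barely read, at 0.262 ± 0.191 CPM dorsally and 0.358 ± 0.098 CPM ventrally. Its neighbour janA had 339 ± 12.6 CPM dorsally and 375 ± 71.4 CPM ventrally. Sry-delta, a zinc finger protein gene, had 41.0 ± 7.43 CPM dorsally and 40.0 ± 8.43 CPM ventrally. RpL32, a ribosomal protein gene often used as a reference in fly RNA work and chosen here after its values were seen, lies 9918 bp from Axn and had 1005 ± 113 CPM dorsally and 1036 ± 53.2 CPM ventrally (SD, n = 3 each).

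**Figure D4:**
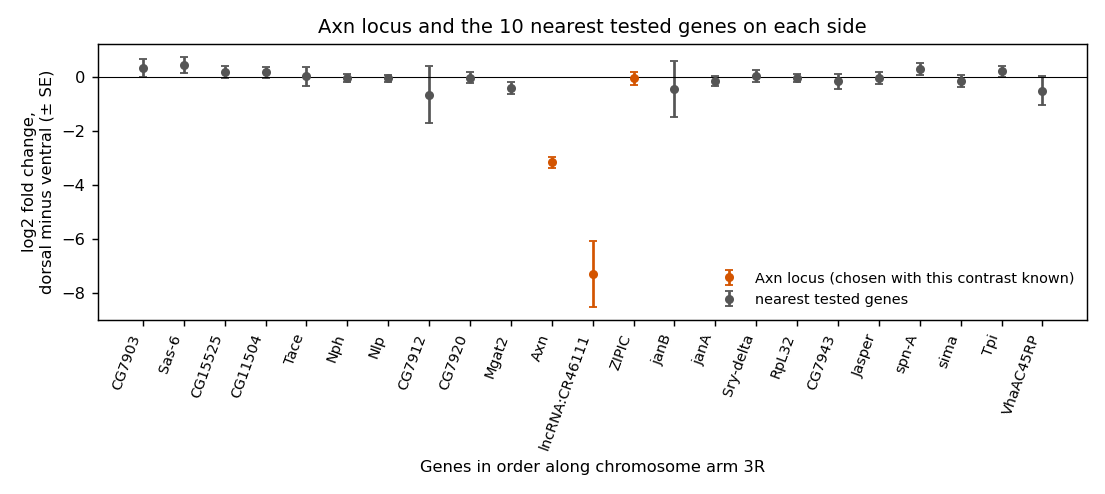
Log2 fold change (dorsal minus ventral, ± SE, edgeR) of Axn, lncRNA:CR46111 and ZIPIC in orange and of the 10 nearest tested genes on each side in grey, in order along 3R. The 20 neighbours and ZIPIC lie between -0.66 and 0.45, with Axn at -3.17 and lncRNA:CR46111 at -7.31.

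The partners of Axin were looked up in a list of 43 other Wnt pathway genes, of which 38 were tested, 2 (Wnt6 and Wnt10) were too low and 3 had no match by symbol. With edgeR none of the 38 passed over all genes, against 0.0919% of all genes. At an unadjusted p under 0.05 there were 3 of 38 (Wnt2, Wnt4 and drl), against 3.2% of all genes. DESeq2 called Wnt2 and Wnt4, against 0.495% of all genes, edgeR with no filter on low counts called Wnt2, with 13 of 15844 genes called in all, and limma-trend called none, against 0.0919% of all genes. The median log2 fold change of the 38 was -0.05.

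The 12 other tested genes of the destruction complex and its regulators had log2 fold changes from -0.27 to 0.15 with a median of -0.07, beside a median of 0.00 over all genes. Their median absolute log2 fold change was 0.08, beside 0.18 over all genes. They also varied less within groups, with a median SD of log2 CPM of 0.23, beside 0.35 over all genes. None of the 12 had an unadjusted p under 0.05, against 3.2% of all genes, so that 0 of 12 is near the background. Apc and Apc2, which encode the scaffolds that share the complex with Axin, stood at 17.5 ± 4.57 and 41.9 ± 8.43 CPM dorsally, and at 18.1 ± 3.29 and 41.0 ± 9.21 CPM ventrally. The kinase gene sgg had 142 ± 20.7 CPM dorsally and 172 ± 33.6 CPM ventrally (log2 fold change -0.27 ± 0.20), and CkIalpha, for the priming kinase, had 392 ± 47.2 CPM dorsally and 413 ± 45.2 CPM ventrally. The substrate gene arm had 373 ± 24.5 CPM dorsally and 348 ± 85.2 CPM ventrally. Tnks encodes Tankyrase, which marks Axin protein for turnover, and had 19.5 ± 5.92 CPM dorsally and 17.6 ± 4.57 CPM ventrally. Each of these genes had an adjusted p of 1.00 (edgeR).

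Receptor and feedback genes did not pass either. The receptor gene fz had 31.1 ± 3.74 CPM dorsally and 25.4 ± 3.04 CPM ventrally, and fz2 had 16.4 ± 2.08 CPM dorsally and 21.7 ± 5.80 CPM ventrally. The co-receptor gene arr had 60.8 ± 10.6 CPM dorsally and 49.1 ± 18.8 CPM ventrally, and dsh, whose protein binds Axin through a shared domain, had 26.5 ± 6.35 CPM dorsally and 28.3 ± 10.5 CPM ventrally. The genes nkd, fz3 and Notum are known as targets that feed back on the pathway. Of these nkd had 31.3 ± 4.70 CPM dorsally and 34.1 ± 11.8 CPM ventrally, fz3 had 1.71 ± 1.46 CPM dorsally and 1.48 ± 1.06 CPM ventrally, and Notum had 2.84 ± 4.66 CPM dorsally and 1.40 ± 0.84 CPM ventrally. Each had an adjusted p of 1.00 (edgeR). The dorsal means of fz3 and Notum were raised by dorsal replicate 2. In dorsal replicates 1 to 3, fz3 had 20, 96 and 25 reads and Notum had 2, 232 and 6. In ventral replicates 1 to 3, fz3 had 70, 12 and 29 reads and Notum had 61, 25 and 16. Among the ligand genes, Wnt2 had 114, 62.4 and 81.2 CPM (dorsal replicates 1 to 3) against 40.8, 38.5 and 40.0 CPM (ventral replicates 1 to 3). Wnt4 had 2.57, 6.09 and 6.04 CPM (dorsal) against 79.3, 21.4 and 16.2 CPM (ventral), in the same order. Their log2 fold changes were 1.11 ± 0.24 for Wnt2 (adjusted p = 0.494, edgeR) and -2.99 ± 0.61 for Wnt4 (adjusted p = 0.418, edgeR).

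**Figure D5:**
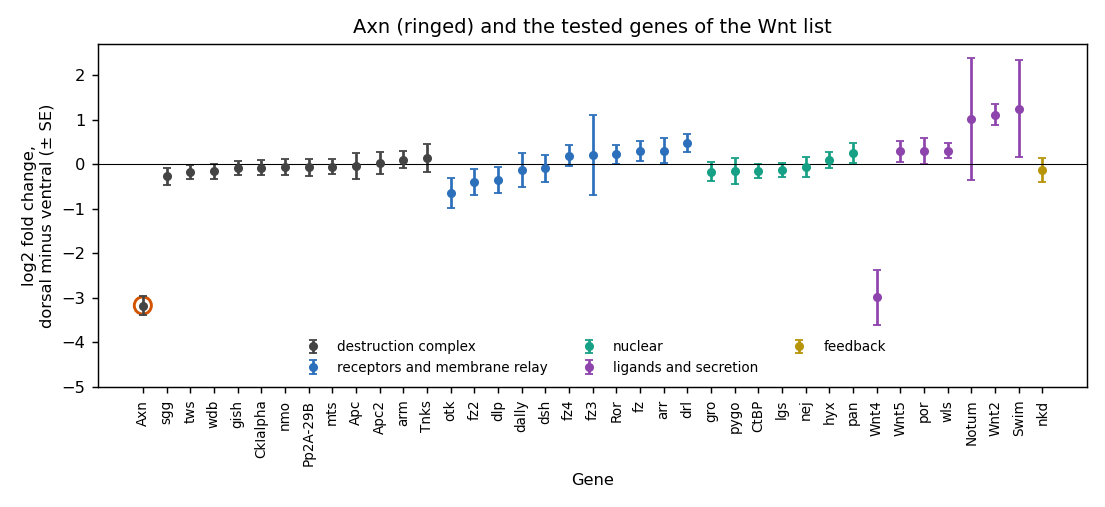
Log2 fold change (dorsal minus ventral, ± SE, edgeR) of Axn, ringed, and the 38 other tested genes of the Wnt list, coloured by role. The 12 other genes of the destruction complex group, which takes in regulators of the complex, lie between -0.27 and 0.15, with Axn at -3.17.

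Genes with a pattern like that of Axn were ranked by Pearson's r of log2 CPM over the 6 libraries, among 6186 genes with a mean of at least 10 CPM. Since Axn splits the libraries by group, so do the genes at both ends, and r ignores the size of the difference. The 5 highest were Galphao (0.983), sano (0.980), Herc4 (0.973), Obp99a (0.965) and disco (0.958). Galphao, a G protein subunit gene, had 103 ± 1.27 CPM dorsally and 144 ± 4.27 CPM ventrally, a much smaller difference than that of Axn. Obp99a, an odorant-binding protein gene, had 233 ± 37.2 CPM dorsally and 463 ± 57.9 CPM ventrally, and sano had 3.83 ± 2.06 CPM dorsally and 59.3 ± 11.7 CPM ventrally. The 5 lowest were CG3294 (-0.997), PGAP5 (-0.993), CG2915 (-0.985), salm (-0.985) and salr (-0.980), the last pair being the Spalt genes. CG2915 had only 100.1 ± 0.957 CPM dorsally and 95.7 ± 0.675 CPM ventrally. With the group means removed, r of the 5 highest with Axn ran from -0.28 to 0.79 and that of the 5 lowest from -0.96 (CG3294) to 0.59 (salr), and 0 to 2 of the 5 stayed at the top when single libraries were left out.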

How the data were processed

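Reads were counted per gene by the authors, and the deposited count table holds whole numbers without scaling. The submitters' processing notes name Trimmomatic, featureCounts, DESeq2, dm6 and BDGP6. The sources used here do not state aligner, versions or strandedness. The deposited normalized counts, which the authors put on a signal scale, are these counts over a factor for each library. Symbols and positions are from Ensembl's BDGP6 annotation (17253 of 17559 identifiers matched).

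Groups followed the sample titles. The main test was edgeR 4.0.16 (R 4.3.3) with TMM factors, filterByExpr and a robust quasi-likelihood fit, Benjamini-Hochberg adjusted over 8707 genes at a threshold of 0.05, and was tested on simulated data. SE was derived from the F statistic. Replicates differed beyond sampling noise (chi-square per gene of 69.6 or more). Alternatives used DESeq2 1.42.0, limma 3.58.1 (log2 of normalized counts plus 1), other factors and filters, a replicate block and left-out libraries. Intervals used scipy 1.17.1.

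The members and lists were chosen with earlier results of these data known. Named genes were the members, the 3 nearest tested genes on each side, the core of the Wnt list, the 5 genes most and the 5 least like Axn, and any called gene of a list. Others were named after their values were seen. List genes without a match by symbol (slmb, wg and WntD) were not analysed here.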

Additional observations from a re-analysis of the deposited data

How the results depend on the processing

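The log2 fold change of Axn stayed between -3.29 and -2.98 in 15 alternatives, all within the spread between replicates, and that of ZIPIC between -0.24 and 0.09. The neighbouring genes held 0 calls in 17 alternatives. DESeq2 called 48 genes in all and 2 of the Wnt list, with a log2 fold change of -7.71 for lncRNA:CR46111. With no filter on low counts edgeR called 13 genes and 1 of the Wnt list. Limma-trend gave lncRNA:CR46111 -5.79, on a scale where a pseudocount of 1 shrinks genes at 0. With ventral replicates 1 and 2 left out together 3 genes were called, with the spread of the remaining ventral library taken from the dorsal libraries. Fits that each left out 1 library gave 4 to 9 called genes, a log2 fold change of lncRNA:CR46111 of -9.12 to -6.84, and 0 to 2 of the 5 genes most like Axn still at the top. The cause of these shifts was not tested beyond the fewer samples and the single dorsal read of lncRNA:CR46111.

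asRNA:CR44045 had no reads and so no value in any fit. With the replicate number as a block 7 genes were called, all among the 8, and Axn had -3.18. Deviations of same-numbered libraries were hardly correlated (r of 0.003, -0.04 and 0.06). The sources used here do not say whether same-numbered libraries were handled together. Such low correlations cannot decide it, since libraries of a group differed widely (chi-square per gene of 69.6 or more). For lncRNA:CR46111, the 0 reads of dorsal replicates 1 and 2 allow up to 0.117 and 0.106 CPM.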
